A study of Drosophila melanogaster with 24 samples.

Results

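The 7 genes described here belong to the X-chromosome dosage compensation complex and were followed in adult heads of Drosophila melanogaster. They are the non-coding RNAs lncRNA:roX1 and lncRNA:roX2 and the protein genes msl-1, msl-2, msl-3, mle and mof. They were chosen by name, as the rows of the deposited expression table whose FlyBase identifier carries one of these symbols. All 7 members were found among the 17606 genes of the table, and all 7 passed the filter on low values that left 12493 genes for testing. The libraries were made from total RNA of whole heads after removal of ribosomal RNA, for 2 sexes, 2 ages and 2 genotypes.

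The genotype under study, H3.3BK36R, carries a lysine-to-arginine change at lysine 36 of the protein made by the X-linked histone gene H3.3B. The control genotype, H3.3Adelta, has wild-type H3.3B. Both genotypes lack H3.3A through a null allele placed over a deficiency chromosome, so the controls are not wild-type flies. Old flies were 21 to 25 days and young flies 0 to 2 days past eclosion, and each library pooled the heads of 10 to 25 flies of 1 sex. There were 3 libraries for each of the 8 groups: old male, young male, old female and young female H3.3BK36R heads, and the same 4 groups of H3.3Adelta heads. Young male H3.3BK36R replicate 2 was left out, which left 23 libraries, 11 male and 12 female. Between 21263006 and 42763126 reads per library lay on genes, with a median of 27763237.

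Drosophila males have a single X chromosome, and the dosage compensation complex binds it and raises the transcription of its genes. MSL-2 is the subunit that females lack, because Sex-lethal (Sxl) represses translation of msl-2 mRNA in females. MSL-1 is the scaffold of the complex, MSL-3 reads methylated lysine of histone H3 in transcribed genes through its chromodomain, MLE is an RNA helicase that remodels the roX RNAs, and MOF acetylates histone H4. The roX RNAs are made from the X, and either of them is enough for the complex to work in flies.

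In the dm6 assembly lncRNA:roX1 (FBgn0019661) lies on the X from 3857230 to 3862697 and lncRNA:roX2 (FBgn0019660) on the X from 11579065 to 11580432. The gene for the acetyltransferase, mof (FBgn0014340), is the third X-linked member, from 5873840 to 5876853. msl-1 (FBgn0005617) lies on 2L from 18683720 to 18688800 and msl-2 (FBgn0005616) on 2L from 3462218 to 3466112. msl-3 (FBgn0002775) lies on 3L from 7123213 to 7125533 and mle (FBgn0002774) on 2R from 5974857 to 5980778. In the annotation, exons of lncRNA:roX1 share 392 bases with ec on the opposite strand, and exons of msl-3 share 85 bases with form3 on the opposite strand. These genes had median values of 862 (ec) and 6528 (form3) normalized counts, so values of lncRNA:roX1 and msl-3 depend on how strand was handled in counting.

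Libraries differed in tissue markers, and these values bear on several results. The defining neural marker elav was present in every library, at 5334 to 10276 normalized counts. The lowest was young male H3.3BK36R replicate 3. Summed genes of head neurons, eye and glia were at 926649 to 1008070 in old male H3.3BK36R and 1196460 to 1269140 in old male H3.3Adelta heads. In old females they were at 776468 to 828625 and 1050680 to 1122410 in the same order, and young heads overlapped between the genotypes. elav also did not overlap in old males, at 7661 to 8282 in H3.3BK36R and 9418 to 10276 in H3.3Adelta heads. The summed level of the female fat body genes, yolk proteins included, was 3160 to 528600 in males and 1283000 to 3772000 in females. The yolk protein gene Yp1 stood above 50000 normalized counts in 3 male libraries, old male H3.3BK36R replicate 1 (51098), young male H3.3BK36R replicate 3 (56504) and old male H3.3Adelta replicate 3 (253930). Young male H3.3BK36R replicate 3 was also low in Unr, an RNA-binding partner of Sxl, with 2644 normalized counts against 15483 to 25753 in the other libraries used, and in Hrb27C, with 11519 against 23220 to 30350. Summed Y-linked genes were low in both sexes, at 1.52 to 196 normalized counts in males and 0 to 58.8 in females, and summed genes of male reproductive tissue did not separate the sexes, at 16.2 to 245 in males and 15.1 to 394 in females. Among old males the Y-linked sums were 98.7 to 196 in H3.3BK36R and 17.2 to 21.6 in H3.3Adelta heads. Sums for male reproductive tissue were 56.5 to 156 and 25.3 to 41.7 in the same order. Young males overlapped between the genotypes in both sums. The part that these differences have in the results was not tested.

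**Figure D1:**
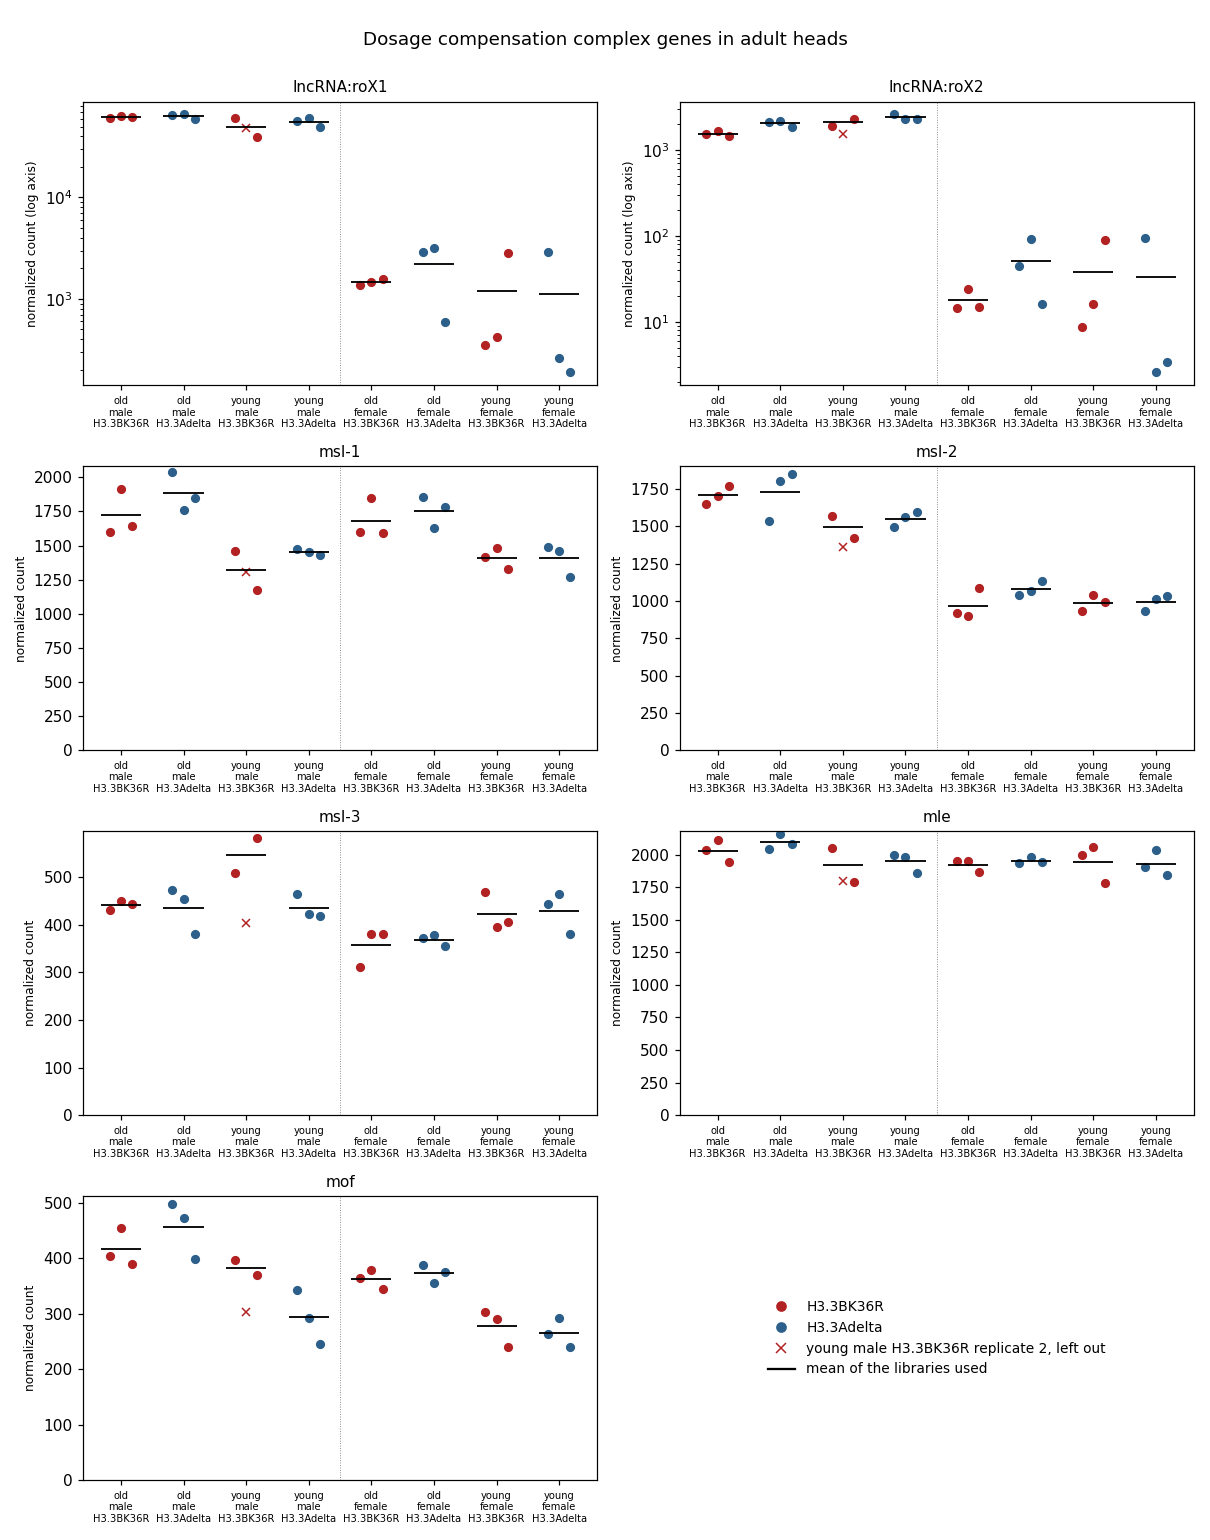
Normalized counts of the 7 members in every library. Each point is a library (red H3.3BK36R, blue H3.3Adelta), the black line is the mean of the libraries used, the cross is young male H3.3BK36R replicate 2, which was left out, and the y axis is logarithmic for lncRNA:roX1 and lncRNA:roX2 and starts at 0 for the others. Males are left of the dotted line: lncRNA:roX1 had 39681 to 65843 normalized counts in males and 189 to 3195 in females, and msl-2 had 1422 to 1854 in males and 897 to 1133 in females.

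The 7 members were at very different levels. Per kilobase of exon, the scale that allows levels of genes to be compared, the median over male libraries was 11133 normalized counts for lncRNA:roX1 and 1572 for lncRNA:roX2. In the same males it was 439 per kilobase for mle, 415 for msl-2, 319 for msl-1, 228 for msl-3 and 131 for mof. The ranges over the 11 males overlapped between mle and msl-2, between msl-2 and msl-1 and between msl-1 and msl-3, and the other neighbours in this order did not overlap. In females the order was mle (median 419 per kilobase), msl-1 (307), msl-2 (266), lncRNA:roX1 (260), msl-3 (193), mof (108) and lncRNA:roX2 (11.7). Here msl-1 overlapped msl-2, msl-2 overlapped lncRNA:roX1, and lncRNA:roX1 overlapped msl-3, since lncRNA:roX1 ranged over 34.5 to 584 per kilobase among females.

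The first question was how the members differ between the sexes. Averaged over ages and genotypes, 5 of the 7 members were higher in males than in females and none was lower: lncRNA:roX1, lncRNA:roX2, msl-2, msl-3 and mof. Over all genes tested 29.5% were called in this comparison, at an adjusted p below 0.05 in limma with Benjamini-Hochberg adjustment over all 12493 genes. The median log2 difference of the 7 members was 0.27, beside 0.01 over all genes tested. Fold changes are on the scale of log2(normalized count + 1), and since these are whole heads a change in the number of cells that make a transcript cannot be told apart from a change in RNA per cell. Replicates are separate pools of flies, and p-values measure the spread between them.

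The RNA lncRNA:roX1 was the most abundant member in males. Old male H3.3BK36R heads had 60874, 63749 and 62003 normalized counts, against 1368, 1471 and 1586 in old female H3.3BK36R heads. Young male H3.3BK36R heads had 60501 and 39681, against 354, 420 and 2830 in young females of that genotype. The lowest male library, young male H3.3BK36R replicate 3, was still above every female library. In H3.3Adelta heads old males had 65549, 65843 and 59370 normalized counts, against 2905, 3195 and 596 in old females. Young males of that genotype had 57035, 60933 and 50086, against 2920, 259 and 189 in young females. No group of males overlapped its females, and the females spread far more widely than the males. The male minus female log2 difference was 5.83 (standard error 0.42, limma adjusted p = 9.79e-09).

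The shorter RNA lncRNA:roX2 was also higher in males, at a far lower level. Old male H3.3BK36R heads had 1542, 1658 and 1457 normalized counts, against 14.7, 23.8 and 15.0 in old females of that genotype. Young male H3.3BK36R heads had 1928 and 2291, against 8.81, 15.9 and 89.9 in young females. All males were again above all females. In H3.3Adelta heads old males had 2151, 2206 and 1840 normalized counts, against 44.7, 92.3 and 15.96 in old females, and young males had 2605, 2324 and 2296, against 94.8, 2.58 and 3.39 in young females. The lowest female values rest on 3 reads. The male minus female log2 difference was 6.54 (standard error 0.46, limma adjusted p = 8.88e-09), a difference whose size for such low female values depends on the pseudocount of 1.

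Among the females the same libraries were high in both RNAs. As a share of the mean of the males of the same age and genotype, lncRNA:roX1 stood at 5.65% in young female H3.3BK36R replicate 3, 5.21% in young female H3.3Adelta replicate 1, 5.02% in old female H3.3Adelta replicate 2 and 4.57% in old female H3.3Adelta replicate 1. In these 4 libraries lncRNA:roX2 stood at 4.26%, 3.93%, 4.47% and 2.16% of its male mean, in the same order. The other 8 female libraries had 0.34% to 2.55% of the male mean for lncRNA:roX1 and 0.107% to 1.53% for lncRNA:roX2. Over the 12 female libraries the correlation of the log2 values of both RNAs was 0.91 (Pearson), a description of libraries that share their RNA and depth. Over the 11 male libraries it was -0.37. Cyp4d21, a gene with higher values in males, is described below. It was at 8.04% to 13.5% of its male mean in the 4 high libraries and at 6.36% to 16.5% in the other 8. These ranges overlapped, but all lay above the lncRNA:roX1 shares, so a difference of a few percent might not show in Cyp4d21. Summed Y-linked genes had 5.06, 3.79, 9.23 and 7.80 normalized counts in the 4 high libraries, in the order above. In the other 8 they had 0 to 3.78, except for 58.8 in young female H3.3BK36R replicate 2. All these sums are low. What sets the female values of the roX RNAs was not tested.

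**Figure D2:**
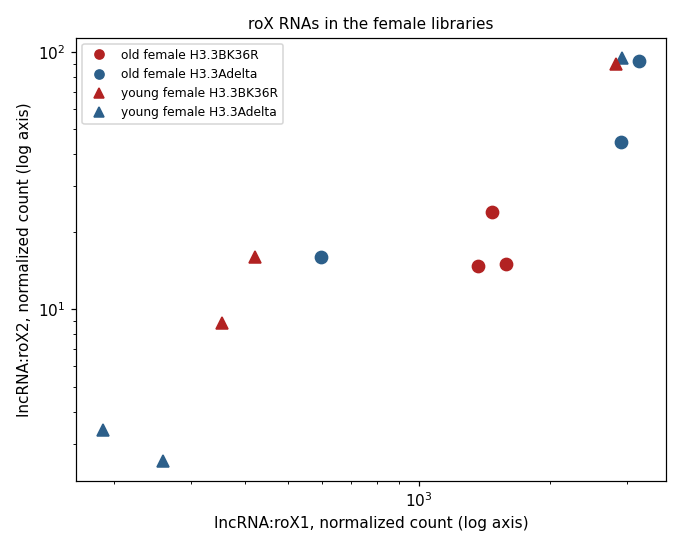
lncRNA:roX2 against lncRNA:roX1 in the 12 female libraries, in normalized counts on logarithmic axes. Red marks H3.3BK36R and blue H3.3Adelta, circles old and triangles young heads, and the 4 libraries with 2830 to 3195 normalized counts of lncRNA:roX1 are also the highest in lncRNA:roX2, at 44.7 to 94.8.

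The gene for the male-specific subunit, msl-2, was higher in males in every group. Old male H3.3BK36R heads had 1652, 1700 and 1769 normalized counts, against 922, 897 and 1090 in old females. Young male H3.3BK36R heads had 1570 and 1422, against 931, 1042 and 994 in young females. The males lay above the females without overlap in both. In H3.3Adelta heads old males had 1539, 1803 and 1854 normalized counts, against 1040, 1065 and 1133 in old females, and young males had 1499, 1562 and 1593, against 933, 1011 and 1035 in young females. The lowest of all male libraries (1422) was above the highest of all female libraries (1133). The male minus female log2 difference was 0.68 (standard error 0.044, limma adjusted p = 5.11e-09), a 1.61-fold difference. Of the protein genes, msl-2 had the largest sex difference, and every female library still carried 691 reads or more of it.

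Of the other protein genes, msl-3 and mof were modestly higher in males and msl-1 and mle were not called. msl-3 had 431, 449 and 444 normalized counts in old male H3.3BK36R heads, against 312, 381 and 381 in old females, and 510 and 583 in young males, against 469, 396 and 405 in young females. In H3.3Adelta heads it had 474, 455 and 381 in old males, against 372, 379 and 355 in old females, and 465, 424 and 418 in young males, against 444, 465 and 381 in young females. Only the last pair of groups overlapped. The averaged male minus female log2 difference of msl-3 was 0.23 (standard error 0.056, limma adjusted p = 0.00318).

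The X-linked gene mof behaved alike in size. It had 403, 455 and 390 normalized counts in old male H3.3BK36R heads, against 364, 379 and 345 in old females, and 396 and 369 in young males, against 303, 291 and 240 in young females. In H3.3Adelta heads it had 499, 472 and 399 in old males, against 389, 355 and 375 in old females, and 343, 292 and 245 in young males, against 264, 293 and 240 in young females. Again only young H3.3Adelta males and females overlapped. The averaged log2 difference of mof was 0.27 (standard error 0.064, limma adjusted p = 0.00306). That of msl-1 was 0.02 (standard error 0.050, adjusted p = 0.814) and that of mle 0.04 (standard error 0.036, adjusted p = 0.413). mle had the narrowest spread of the members, at 1789 to 2160 normalized counts in males and 1785 to 2056 in females.

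Within each age and genotype 3 members were called, and these were lncRNA:roX1, lncRNA:roX2 and msl-2 each time. The share of all tested genes called was 19.6% in old H3.3BK36R, 1.54% in young H3.3BK36R, 12.1% in old H3.3Adelta and 3.78% in young H3.3Adelta heads. The log2 difference of msl-2 was 0.82 in old H3.3BK36R, 0.60 in young H3.3BK36R, 0.68 in old H3.3Adelta and 0.64 in young H3.3Adelta heads. That of lncRNA:roX1 was 5.40, 6.03, 5.17 and 6.74 in the same order of groups. By overlap alone, 5 members did not overlap between the sexes in old H3.3BK36R heads (41.1% of all tested genes), 5 in young H3.3BK36R (22.6%), 6 in old H3.3Adelta (32.2%, with mle as the sixth) and 3 in young H3.3Adelta (25.2%). In each case the males were higher. In young H3.3BK36R heads, with 2 male libraries, the 3 calls were lost when the libraries were weighted by their quality (adjusted p of 0.362 to 0.529) or when those 2 groups were fitted on their own (0.118 to 0.428), with nearly the same log2 differences. In old H3.3BK36R heads msl-3 stood at an adjusted p of 0.0504 and passed 0.05 in several alternatives, down to 0.0232 with library weights.

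**Figure D3:**
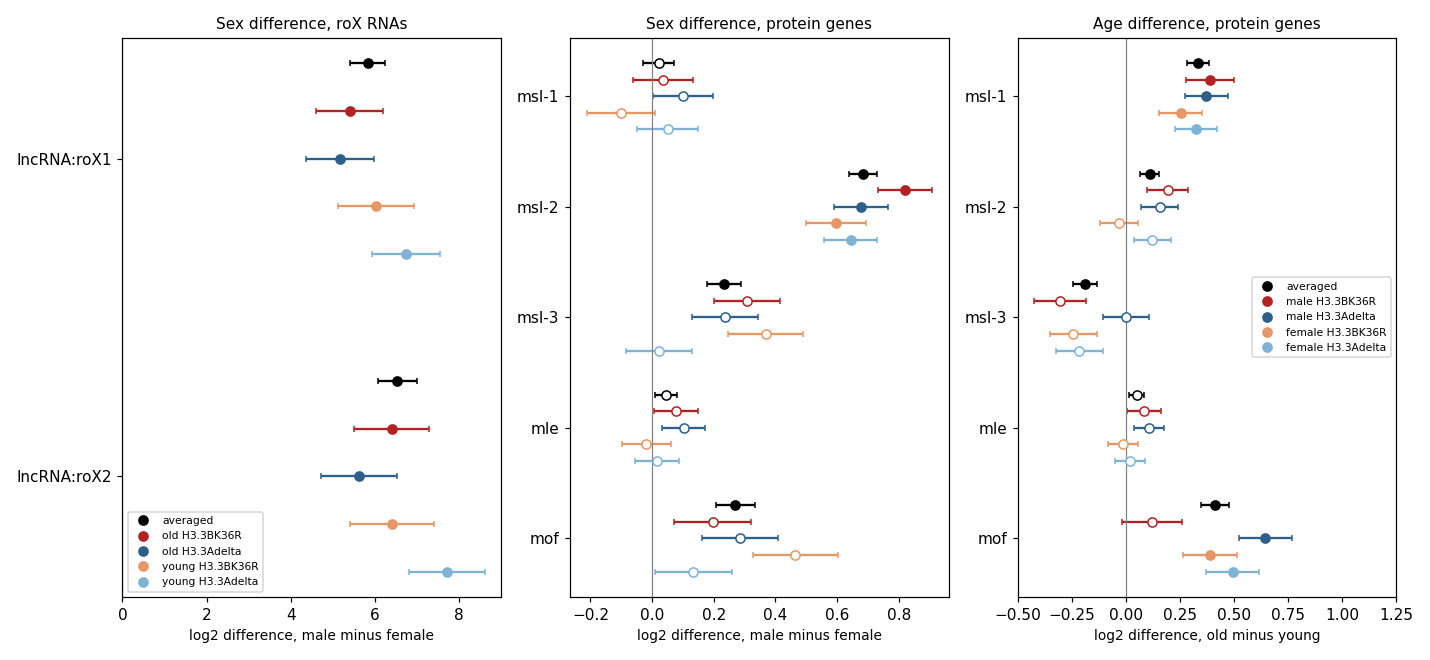
Log2 differences of the members, averaged over groups (black) and within each group, with standard errors as bars. Filled points passed an adjusted p of 0.05 in limma. Left and middle, male minus female. Right, old minus young. The sex difference of msl-2 was called in all 4 groups (0.60 to 0.82), and the age difference of msl-1 in all 4 groups (0.25 to 0.39).

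The interplay of sex with the other factors gave no called member. For sex by genotype, limma called 0 of 7 members in old heads and 0 of 7 in young heads, beside 0.0480% and 0% of all tested genes. At an unadjusted p below 0.05 there were 0 and 1 members, and the single one was msl-3 in young heads. For sex by age it called 0 of 7 members in H3.3BK36R and 0 of 7 in H3.3Adelta heads, beside 0.136% and 0% of all genes, and at an unadjusted p below 0.05 there was none. edgeR also called 0 of 7 in each of these comparisons, and DESeq2 0 of the 5 members to which it gave a p.

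The second question was how the members differ with age. Averaged over sexes and genotypes, 3 members were higher in old heads (msl-1, msl-2 and mof) and 1 was lower (msl-3). This comparison called 54.0% of all genes tested, so 4 of 7 is close to that background. The median log2 difference of the members was 0.19, beside 0.04 over all genes tested.

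msl-1, the scaffold, had 1603, 1917 and 1645 normalized counts in old male H3.3BK36R heads, against 1462 and 1177 in young males, and 1596, 1851 and 1590 in old females, against 1418, 1480 and 1326 in young females. In H3.3Adelta heads it had 2037, 1760 and 1850 in old males, against 1471, 1451 and 1434 in young males, and 1854, 1632 and 1783 in old females, against 1493, 1459 and 1267 in young females. Old heads lay above young heads without overlap in all 4 pairs of groups. The log2 difference was 0.33 (standard error 0.050, limma adjusted p = 1.4e-05). Within groups it was called in all 4, at 0.39 in male H3.3BK36R, 0.25 in female H3.3BK36R, 0.37 in male H3.3Adelta and 0.32 in female H3.3Adelta heads. In female H3.3BK36R heads its adjusted p was 0.0499, and it rose above 0.05 without any of 18 of the 23 libraries. In male H3.3BK36R heads it was 0.245 without young male replicate 3 and 0.083 without old male replicate 2, with log2 differences of 0.23 to 0.54 over all libraries left out in turn. In female H3.3Adelta heads it was 0.0706 without old female replicate 1, 0.0528 without old female replicate 3 and 0.103 without young female replicate 3.

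mof differed most with age among the protein genes, with a log2 difference of 0.41 (standard error 0.064, limma adjusted p = 1.93e-05), a 1.33-fold difference. The values given above for mof do not overlap between old and young heads in male H3.3Adelta (399 to 499 against 245 to 343), female H3.3Adelta (355 to 389 against 240 to 293) and female H3.3BK36R heads (345 to 379 against 240 to 303). In male H3.3BK36R heads they do overlap, at 390 to 455 in old and 369 to 396 in young heads. The log2 difference was called in the first 3 of these groups, at 0.64, 0.49 and 0.39, and was 0.12 (adjusted p = 0.608) in male H3.3BK36R heads. The age difference of mof was not called to differ between the sexes within H3.3BK36R (log2 difference of differences -0.27, adjusted p = 0.462). In female H3.3BK36R heads its adjusted p was 0.111 without young female replicate 3 and 0.065 without old female replicate 2.

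msl-3 went the other way, with a log2 difference of -0.19 (standard error 0.056, limma adjusted p = 0.00644). It was lower in old heads without overlap in male H3.3BK36R (431 to 449 against 510 to 583), female H3.3BK36R (312 to 381 against 396 to 469) and female H3.3Adelta heads (355 to 379 against 381 to 465). In male H3.3Adelta heads old and young libraries overlapped, at 381 to 474 and 418 to 465. No single group was called for msl-3. Without the 3 male libraries over 50000 normalized counts of Yp1 the averaged difference was -0.14, with an adjusted p of 0.0569. Without these 3 libraries 2 members, msl-1 and mof, were called with age in place of 4. For msl-2 the log2 difference was 0.11 (standard error 0.044, adjusted p = 0.0452), and the adjusted p rose above 0.05 without any of 14 of the 23 libraries. It was not called in a single group.

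Also not called with age were mle at 0.05 (adjusted p = 0.279) and lncRNA:roX2 at 0.19 (adjusted p = 0.75). lncRNA:roX1 had a log2 difference of 0.81 (standard error 0.42, adjusted p = 0.106), and it was not called either. Without young female H3.3Adelta replicate 1 its adjusted p was 0.00557, without young female H3.3BK36R replicate 3 it was 0.0223, and without old female H3.3Adelta replicate 3 it was 0.0382. The first 2 of these libraries were the highest of their groups in lncRNA:roX1 and the last was the lowest of its group. Without young female H3.3Adelta replicate 1 the old minus young difference in female H3.3Adelta heads was 2.99 for lncRNA:roX1 (adjusted p = 0.00299) and 3.39 for lncRNA:roX2 (adjusted p = 0.000982), where the fit with all 23 libraries gave 1.76 for lncRNA:roX1 (adjusted p = 0.107).

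Within groups, the comparison of old with young heads called 1 member in male H3.3BK36R (19.2% of all genes), 2 in female H3.3BK36R (37.0%), 2 in male H3.3Adelta (26.5%) and 2 in female H3.3Adelta heads (30.2%). These were msl-1 and mof, except that mof was not called in male H3.3BK36R heads. By overlap alone, 5 members did not overlap between the ages in male H3.3BK36R (45.4% of all genes), 3 in female H3.3BK36R (45.8%), 4 in male H3.3Adelta (42.9%) and 4 in female H3.3Adelta heads (47.5%).

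The third question was whether the members differ between the genotypes, which is the comparison for which the series was made. With both sexes together and sex as a term of the fit, limma called 0 of 7 members in old heads, where 18.6% of all genes were called, and 0 of 7 in young heads, where 9.21% were. At an unadjusted p below 0.05 there were 0 members in old and 1 in young heads (mof, log2 difference 0.21). The age by genotype term called 0 of 7 members and 2.22% of all genes, with mof again the 1 member at an unadjusted p below 0.05 (-0.29, adjusted p = 0.32). edgeR and DESeq2 also called 0 of 7 in these 3 comparisons.

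Within sexes the 8-group fit also called no member between the genotypes. The share of all genes called was 8.0% in old males, 10.8% in old females, 4.63% in young males and 3.89% in young females. At an unadjusted p below 0.05 there were 0, 0, 2 and 0 members in this order. The 2 in young males were mof, at 396 and 369 normalized counts in H3.3BK36R against 343, 292 and 245 in H3.3Adelta heads, and msl-3, at 510 and 583 against 465, 424 and 418. Neither overlapped between the genotypes. Their log2 differences were 0.40 (adjusted p = 0.103) and 0.33 (adjusted p = 0.123). The library that was left out, young male H3.3BK36R replicate 2, had 303 for mof and 404 for msl-3, within the H3.3Adelta range for mof and below it for msl-3. The higher msl-3 value (583) is that of the library low in Unr.

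Between the genotypes in males, lncRNA:roX2 was not called in the 8-group fit, and its values did not overlap at either age. Old male H3.3BK36R heads had 1542, 1658 and 1457 normalized counts, against 2151, 2206 and 1840 in old male H3.3Adelta heads. Young male H3.3BK36R heads had 1928 and 2291, against 2605, 2324 and 2296 in young male H3.3Adelta heads. Every H3.3BK36R library was below every H3.3Adelta library of its age. The nearest values were 1658 against 1840 in old heads and 2291 against 2296 in young heads. The young values are close enough that their order can depend on the scaling of the libraries. The library left out was lower still, at 1536. That library had 37661.4 normalized counts of summed male reproductive tissue genes, against 15.1 to 394 in the libraries used. Of all tested genes, 5.60% were lower in H3.3BK36R males without overlap at both ages. The log2 difference was -0.41 in old and -0.19 in young males.

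The 8-group fit gave adjusted p-values of 0.862 and 0.947 to these differences of lncRNA:roX2, with standard errors of 0.896 and 1.002, and it shares 1 estimate of spread with the females. With the 2 old male groups fitted on their own the adjusted p was 0.0264. In a fit of the male libraries alone, chosen after the values were seen, the difference averaged over ages was -0.30 (standard error 0.078, limma adjusted p = 0.0307), a level 0.811 times that of H3.3Adelta males, and lncRNA:roX2 was the 1 member of 7 called. With 10.5% of all genes called, 1 of 7 is close to the background. In old males alone it was -0.41 (standard error 0.10, adjusted p = 0.0359, 7.13% of all genes called), and in young males it was -0.19 (standard error 0.12, adjusted p = 0.412, 1.82% of all genes called), where 0 members were called and 2 (mof and msl-3) had an unadjusted p below 0.05.

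The limma call on lncRNA:roX2 rests on few libraries. Its averaged adjusted p was 0.067 without old male H3.3BK36R replicate 1, 0.0831 without old male H3.3BK36R replicate 3, 0.0572 without old male H3.3Adelta replicate 1, 0.0721 without old male H3.3Adelta replicate 2 and 0.0785 without young male H3.3Adelta replicate 1. The log2 difference stayed between -0.36 and -0.24 with each of the 11 libraries left out in turn. The adjusted p was 0.0254 (log2 difference -0.38) with young male H3.3BK36R replicate 2 included, the library high in male reproductive tissue genes. It was 0.0484 in edgeR and 0.00583 in DESeq2, and 0.0627 in limma with the replicate number added as a term of the fit. In old males alone the limma call was lost without any 1 of the 3 H3.3BK36R libraries or without H3.3Adelta replicate 1 or 2 (0.0695 to 0.157), and with young male H3.3BK36R replicate 2 included (0.119).

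The longer RNA, lncRNA:roX1, was not called. In the male libraries alone its genotype difference was -0.11 (standard error 0.14, adjusted p = 0.678). Without young male H3.3BK36R replicate 1 it was -0.26 with an adjusted p of 0.0244, where young male H3.3BK36R heads are the library low in Unr alone. As normalized counts of lncRNA:roX2 per 100 of lncRNA:roX1, old male H3.3BK36R heads had 2.50 ± 0.13 and old male H3.3Adelta heads 3.24 ± 0.13 (SD, n = 3 each, no overlap). Young males had 3.19 and 5.77 in H3.3BK36R heads, against 4.57, 3.81 and 4.58 in H3.3Adelta heads, which overlapped. The ratio was not separated by genotype over both ages (log2 difference -0.19, exact two-sided permutation p = 0.295). This was 1 of 4 such tests in males, all chosen after the values were seen. Those of lncRNA:roX2 by genotype, lncRNA:roX2 by age and the ratio by age each gave an exact permutation p of 0.005 (adjusted 0.00667). That is the smallest that 200 relabellings can give, and it restates that these groups did not overlap.

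**Figure D4:**
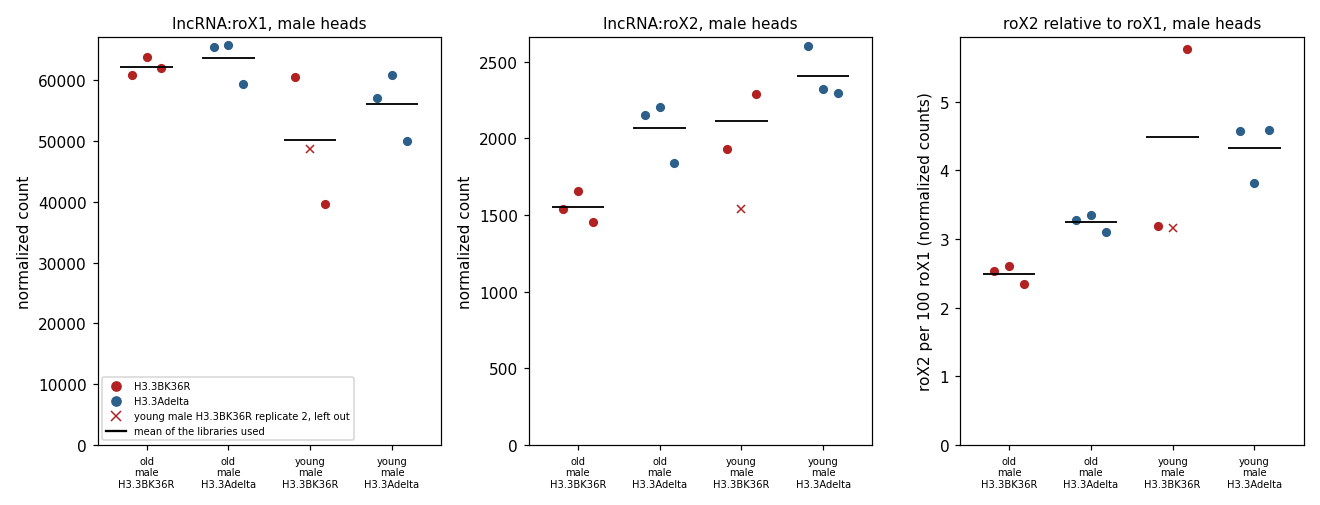
lncRNA:roX1, lncRNA:roX2 and normalized counts of lncRNA:roX2 per 100 of lncRNA:roX1 in male heads. Points are libraries (red H3.3BK36R, blue H3.3Adelta), black lines the mean of the libraries used and the cross the library left out. lncRNA:roX2 was 1457 to 1658 normalized counts in old H3.3BK36R and 1840 to 2206 in old H3.3Adelta males, while lncRNA:roX1 overlapped between the genotypes at both ages.

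In the male libraries alone lncRNA:roX2 was lower in old heads, while msl-1 and mof were higher. The old libraries listed above lay below the young libraries in both genotypes. The old minus young log2 difference was -0.33 (standard error 0.078, limma adjusted p = 0.00689), and these were the 3 members called, beside 33.1% of all genes, which is a similar share. With young male H3.3BK36R replicate 2 included it was -0.26 with an adjusted p of 0.0608. Relative to lncRNA:roX1 the old minus young log2 difference of lncRNA:roX2 was -0.60.

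By overlap alone, the genotypes were apart in 1 member in old males (lncRNA:roX2, beside 32.0% of all genes), 0 members in old females (30.3%), 3 members in young males (lncRNA:roX2 lower, msl-3 and mof higher, beside 29.2%) and 0 in young females (23.1%). In females lncRNA:roX2 ran from 14.7 to 23.8 normalized counts in old H3.3BK36R and from 15.96 to 92.3 in old H3.3Adelta heads, and its genotype difference in young females was 1.11 on the log2 scale (adjusted p = 0.586). It was 2.64 (adjusted p = 0.0341) without young female H3.3Adelta replicate 1, the library with 94.8.

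The complex acts on the X, and the level of X-linked genes relative to autosomal genes was therefore computed for each library. For every tested gene the log2 value was set against the mean of its 8 group means, and the median over the genes of 2L, 2R, 3L and 3R (10269) was taken from the median over X-linked genes (2009, lncRNA:roX1 and lncRNA:roX2 left out). This is a relative measure: 0 is the average of these groups. It averaged -0.11 in old male H3.3BK36R, -0.04 in young male H3.3BK36R, 0.03 in old female H3.3BK36R and 0.04 in young female H3.3BK36R heads. In H3.3Adelta heads it averaged -0.0025 in old males, -0.0011 in young males, 0.06 in old females and 0.06 in young females.

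The X level was lower in males than in females by 0.0879 on the log2 scale within age and genotype (exact two-sided permutation p = 1.25e-05, the smallest that 80000 relabellings can give, adjusted p = 6.25e-05 over 5 such tests). It was lower in H3.3BK36R than in H3.3Adelta heads by 0.0527 (exact permutation p = 0.00116, adjusted p = 0.00291). Among the 11 males the log2 difference was -0.08, with p = 0.025 by the same exact permutation (0.0313 when adjusted), and among the 12 females it was -0.03, with p = 0.015 (0.025 when adjusted). Old male H3.3BK36R libraries, at -0.13 to -0.08, lay below every other library, and young male H3.3BK36R replicate 3 came next at -0.07. Old and young heads did not differ beyond the spread (-0.02, exact permutation p = 0.178). The exact permutation p of the males was 0.075 without young male H3.3BK36R replicate 3, and 0.05 without old male H3.3BK36R replicate 2 or 3 or young male H3.3Adelta replicate 1 or 3. That of the females was 0.055 without old female H3.3Adelta replicate 2, 0.065 without old female H3.3Adelta replicate 3 and 0.05 over genes with a mean of at least 100 normalized counts. H3.3B itself lies on the X, and the part that tissue make-up has in this level was not tested.

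**Figure D5:**
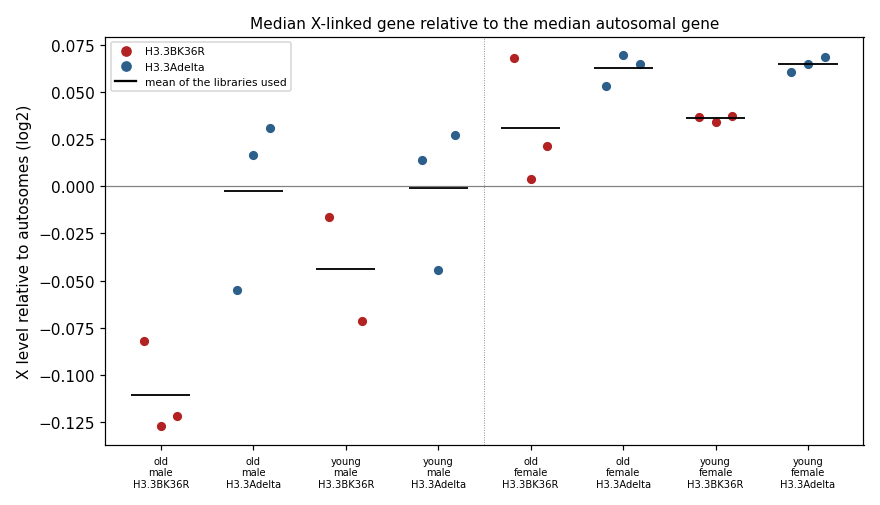
Level of X-linked relative to autosomal genes in each library, on the log2 scale and relative to the average of the 8 groups. Points are libraries (red H3.3BK36R, blue H3.3Adelta), and black lines are group means. Males are left of the dotted line, and old male H3.3BK36R heads have the lowest mean (-0.11).

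The proteins that bring the complex to the X or act beside it on chromatin were described from a list of 7 genes found in the table. Between the sexes 2 of 7 were called, both higher in males: Top2, which encodes topoisomerase II (0.30, adjusted p = 0.00709), and Zn72D (0.15, adjusted p = 0.0324), a zinc finger gene needed for mle splicing. The share over all genes was 29.5%, and the call on Zn72D was lost without any 1 of 10 of the 23 libraries. With age 3 of 7 were called, all higher in old heads: Top2 (0.71, adjusted p = 4.14e-07), the chromodomain gene MRG15 (0.30, adjusted p = 0.0114) and the histone H3 kinase gene JIL-1 (0.15, adjusted p = 0.0131), beside 54.0% of all genes. Without young male H3.3BK36R replicate 3 the age difference of JIL-1 was 0.0915 (adjusted p = 0.0452). Clamp and Set2 were picked out after their values were seen. Clamp, whose protein binds the GA-rich sites that the complex first occupies, had log2 differences of -0.0028 between the sexes (adjusted p = 0.965) and 0.07 with age (adjusted p = 0.0637). Set2, the methyltransferase for the H3 lysine that MSL-3 reads, was not called in either (-0.04 and 0.12). In the genotype comparisons with both sexes limma, edgeR and DESeq2 each called 0 of the 7. For limma the share over all genes was 18.6% in old and 9.21% in young heads. At an unadjusted p below 0.05 limma had 4 of the 7 in old heads, beside 3835 of all 12493 genes. In young heads it had 0 of the 7, beside 2967 genes.

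Of 7 regulators of msl-2 and the roX RNAs, 4 were called between the sexes, beside 29.5% of all genes. Sxl, the repressor of msl-2 translation, was lower in males (-0.88, standard error 0.081, adjusted p = 1.34e-07), with 7637 to 17044 normalized counts in males and 23106 to 27681 in females and no overlap. The chromatin remodeller gene Iswi (0.22, adjusted p = 0.000188) and ssx (0.26, adjusted p = 0.002), a paralog of Sxl, were higher, and the fourth call was lower in males. With age 5 of 7 were called, beside 54.0% of all genes, 3 higher and 2 lower, and those with the smallest adjusted p were Iswi (0.37, adjusted p = 1.35e-07), ssx (-0.34, adjusted p = 7.2e-05) and Hrb27C (0.36, adjusted p = 0.00168). Without young male H3.3BK36R replicate 3 the age difference of Hrb27C was 0.22 (adjusted p = 9.3e-06). In genotype comparisons 1 of these calls was made, Sxl in young males (-0.63, limma adjusted p = 0.0462), where 4.63% of all genes were called. At an unadjusted p below 0.05 limma had 5 of the 7 regulators in young males, beside 2512 of all 12493 genes. For Sxl the young male H3.3BK36R heads had 15456 and 7637 normalized counts, against 17044, 16517 and 16816 in H3.3Adelta heads. The lower value is that of the library low in Unr, and without it, with 1 library left in that group, the difference was -0.12. The limma call was lost without any 1 of 21 of the 23 libraries. In this comparison edgeR called 0 of the 7 regulators and DESeq2 called 1. Without young male H3.3BK36R replicate 1, again with 1 library left in that group, the difference was -1.14.

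MOF also works in the NSL complex, which acts on genes of all chromosomes in both sexes. Of its 6 other genes listed, 0 of 6 were called between the sexes by limma, edgeR or DESeq2, beside 29.5% of all genes in limma. In each of these, 1 of the 6 had an unadjusted p below 0.05. With age limma called 3 of 6, all higher in old heads, beside 54.0% of all genes called. These were wds (0.37, adjusted p = 2.11e-06), MBD-R2 (0.25, adjusted p = 5.96e-06) and dgt1 (0.16, adjusted p = 0.019). Rcd5 was the 1 NSL gene called between the genotypes, in old heads (0.23, limma adjusted p = 0.00711). There 18.6% of all genes were called, so 1 of 6 is close to that background.

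The genes with the pattern most like each member were found by the correlation of log2 values over the 23 libraries, which share sex, age and library effects. For lncRNA:roX1 they were Cyp4d21 (r = 0.91), CG2889 (0.88) and CG34227 (0.88), and for lncRNA:roX2 Cyp4d21 (0.92), sxe2 (0.89) and Mst77Y-16Psi (0.88), a member of a Y-linked multicopy family whose reads cannot be placed with certainty. For msl-2 they were Mst77Y-16Psi (0.92), Cyp4d21 (0.91) and CG2889 (0.90), so lists of these 3 members overlap. For msl-1 they were CG14712 (0.90), Pabp2 (0.90) and the insulator gene Cp190 (0.90), and for mof the histone deacetylase gene HDAC1 (0.92), the neuropeptide gene NPF (0.90) and CG33116 (0.90). For msl-3 they were PGRP-LA (0.87), CG13409 (0.82) and lncRNA:CR44946 (0.81), and for mle didum (0.90), bsd (0.88) and CG4887 (0.88). HDAC1 had 783 to 1107 normalized counts in old males and 773 to 927 in old females, against 504 to 705 in young males and 398 to 577 in young females.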

How the data were processed

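Heads of H3.3BK36R and H3.3Adelta flies were profiled by RNA-seq of total RNA (100 nt paired-end reads). The authors aligned reads to dm6 with STAR 2.7.7a, counted them per gene with featureCounts (Subread 2.0.3) and deposited counts divided by DESeq2 1.34.0 size factors, a signal per gene called normalized count here. The deposited table's name marks forward-strand counting, and the annotation release is not given in the sources used here. Dividing out the size factors (0.75 to 1.41) gave whole reads for 100% of values (tolerance 0.001). Young male H3.3BK36R replicate 2 was left out. Positions, exon lengths and chromosomes came from the BDGP6 annotation, and 17526 of 17606 gene IDs matched a symbol.

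The 12493 genes that reached 10 normalized counts in 3 or more of the 23 libraries were tested with limma 3.58.1 (R 4.3.3, trend, two-sided) on log2(normalized count + 1). Sex, age and within-sex comparisons came from a fit of 8 groups, and genotype comparisons over both sexes from a fit of the 4 age and genotype groups that also held sex. P-values were adjusted by Benjamini-Hochberg over all tested genes, and a gene was called at an adjusted p under 0.05. edgeR 4.0.16 and DESeq2 1.42.0 were run on the recovered reads as alternatives. DESeq2 gave no adjusted p for lncRNA:roX1 and lncRNA:roX2 in the 8-group fit. Other alternatives were the pseudocount, the filter, scaling, library weights, all 24 libraries, the replicate block and each library left out. Fits of 1 sex alone, the tests on the roX RNAs and leaving out males high in Yp1 were added after the data were seen. Scripts were tested on simulated data. Of 22 replicate pairs none agreed within sampling noise.

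Text names the 7 members, up to 3 called genes with the smallest adjusted p per list and comparison, and the 3 genes most correlated with each member. Members and lists were chosen with earlier results of these data known. Mtor was not analysed here.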

Additional observations from a re-analysis of the deposited data

Results flagged for a closer look

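Young male H3.3BK36R replicate 2 was left out of the main comparisons and entered only the alternatives with all 24 libraries. It had a summed level of 37661.4 normalized counts for the genes listed for male reproductive tissue, against 15.1 to 394 in the 23 libraries used. This level stands here as a signal in a library outside the main measurement. Its lncRNA:roX1 (48652 normalized counts) and lncRNA:roX2 (1536) were those of a male, and its summed Y-linked genes stood at 1118, against 1.52 to 196 in the other males.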

How the results depend on the processing

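Of 6028 values of single members and of the X level under the alternatives, 5911 kept their side of the threshold, 84 lost a call and 33 gained one, and no called value changed sign. The 5 members called between the sexes remained 5 with each library left out, and the 4 called with age ranged over 3 to 4, but were 2 without the 3 male libraries high in Yp1. In male libraries alone the 1 member called between the genotypes ranged over 0 to 2 with each library left out and was 0 with the replicate block, where lncRNA:roX2 had an adjusted p of 0.0627 over both ages and 0.0564 in old males. The labels do not say that numbers mark shared animals or days. Over 77 pairs with the same number the correlation of deviations ran from -0.35 to 0.68, and 35 were over 0.1. The mean was 0.10, higher than the -0.05 for other numbers. As the labels give no pairing, the main fits did not pair the libraries by number. Whether libraries with the same number share an effect was not tested. With the block mof was called in young males between the genotypes (0.42, adjusted p = 0.0382) and between the sexes in young H3.3BK36R heads (0.49, adjusted p = 0.0323). Counts over all genes were unsteady in young males: 579 genes were called between the genotypes (41 to 2179 over the alternatives) and 193 between the sexes in young H3.3BK36R heads (2 to 1459). Counts for sex by age in H3.3BK36R (17, 0 to 2027) and sex by genotype in young heads (0, 0 to 1012) moved more in proportion. The causes were not tested. lncRNA:roX2 in females rests on 3 to 125 reads a library, which limits its differences there.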
